A study of Mus musculus with 18 samples.

Results

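The genes described here are 10 factors through which astrocytes act on synapses and vessels, taken by name from the deposited table: the SPARC family proteins Sparcl1 and Sparc, the glypicans Gpc4, Gpc5 and Gpc6, the secreted BMP antagonist Chrdl1, the engulfment genes Megf10, Mertk and Mfge8, and the vascular growth factor Vegfa. All 10 were among the 21923 genes of the table and all 10 passed the filter on low counts, as did 13296 genes in all. They were measured by translating ribosome affinity purification (TRAP), in which ribosomes carrying an EGFP tag are pulled down with the mRNA they are translating, so that the immunoprecipitate (IP) is enriched for transcripts of the tagged cells. The comparison was between cortical IP libraries of 4 GLUT1 cKO mice, labelled GLUT1 flox/flox;GLAC +/wt, and 3 control mice, labelled GLAC +/wt.

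Both groups were male C57BL/6 mice kept in the home cage, and both carried the tamoxifen-inducible Cre under the GLAST (Slc1a3) promoter. By their labels the genotypes differ in the floxed Slc2a1 alleles. Whether they also differ in DNA inherited beside these alleles was not examined. Both groups also received the Cre-dependent viral vector that expresses EGFP-L10a under a human GFAP promoter, and tamoxifen 7 days later over 5 consecutive days at an age of 8 to 10 weeks. RNA was collected 60 days after tamoxifen. The tag marks cells in which the vector, Cre and the GFAP promoter act together, and a GLAST or GFAP promoter is not strictly limited to astrocytes. Inputs were not analysed here, so the values are levels in the IP and not enrichments over whole cortex.

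Astrocytes control the number and strength of excitatory synapses with secreted proteins. Sparcl1 (hevin) bridges presynaptic neurexin and postsynaptic neuroligin and promotes synapse formation, and Sparc antagonises it. Gpc4 and Gpc6 are heparan sulfate proteoglycans that draw AMPA receptors to the young synapse, whereas Chrdl1 favours the switch to calcium-impermeable, GluA2-containing receptors at the mature one. Astrocytes also remove synapses and debris by phagocytosis, for which Megf10 and Mertk are receptors and Mfge8 is a secreted bridge to phosphatidylserine. Vegfa is the main growth factor for endothelial cells and a classical target of hypoxia-inducible factors.

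The 3 control libraries are AstroTRAP_11, AstroTRAP_15 and AstroTRAP_19, and the 4 cKO libraries AstroTRAP_1, AstroTRAP_5, AstroTRAP_9 and AstroTRAP_17. Total estimated counts ran from 12570309 to 40734343 per library, lowest in AstroTRAP_17 and highest in AstroTRAP_11. Slc2a1, which the floxed alleles target, was between 57.6 and 61.7 CPM in the control libraries and between 56.4 and 61.9 CPM in the cKO libraries. These ranges overlap, and since a count over the whole gene can include exons that Cre leaves in place, it is no check of the genotype labels. The study followed reads over exons of Slc2a1 in a separate alignment, which was not analysed here. It reported fewer such reads in the cKO than in the control IP samples. All 11 astrocyte markers were detected, and their summed level was between 31555 and 49659 CPM in the control libraries and between 32938 and 62711 CPM in the cKO libraries. Neuronal RNA was also present, with 10 of 10 markers detected at a summed 2930 to 4450 CPM over the 7 libraries. Without inputs these sums describe the libraries and do not show how far the pulldown enriched astrocyte RNA.

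No member of the group passed the threshold between genotypes. With edgeR's quasi-likelihood test on all 13296 genes and Benjamini-Hochberg adjustment, 0 of the 10 factors had an adjusted p under 0.05, where 0.0451% of all genes tested had one, and each of the 10 had an adjusted p of 0.9996. The edgeR exact test and DESeq2 also called 0 of the 10, where they called 0.135% and 0.158% of all genes. By unadjusted p, 1 of the 10 was under 0.05 with the quasi-likelihood test, which was Sparc, where 2.58% of all genes were in either direction and 1.14% in the direction of Sparc. The values of the genotypes did not overlap for Sparc, lower in the cKO libraries as were 2.76% of all genes, and for Gpc6, higher in the cKO libraries as were 2.35%. The log2 fold changes of the 10, cKO minus control, lay between -0.50 for Sparc and 0.40 for Gpc6, with 3 positive and 7 negative, where 47.7% of all genes were negative, and a median of -0.044, where that of all genes was 0.012. In IP data from whole cortex, fewer tagged cells and less ribosome-bound RNA per cell cannot be told apart.

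**Figure D1:**
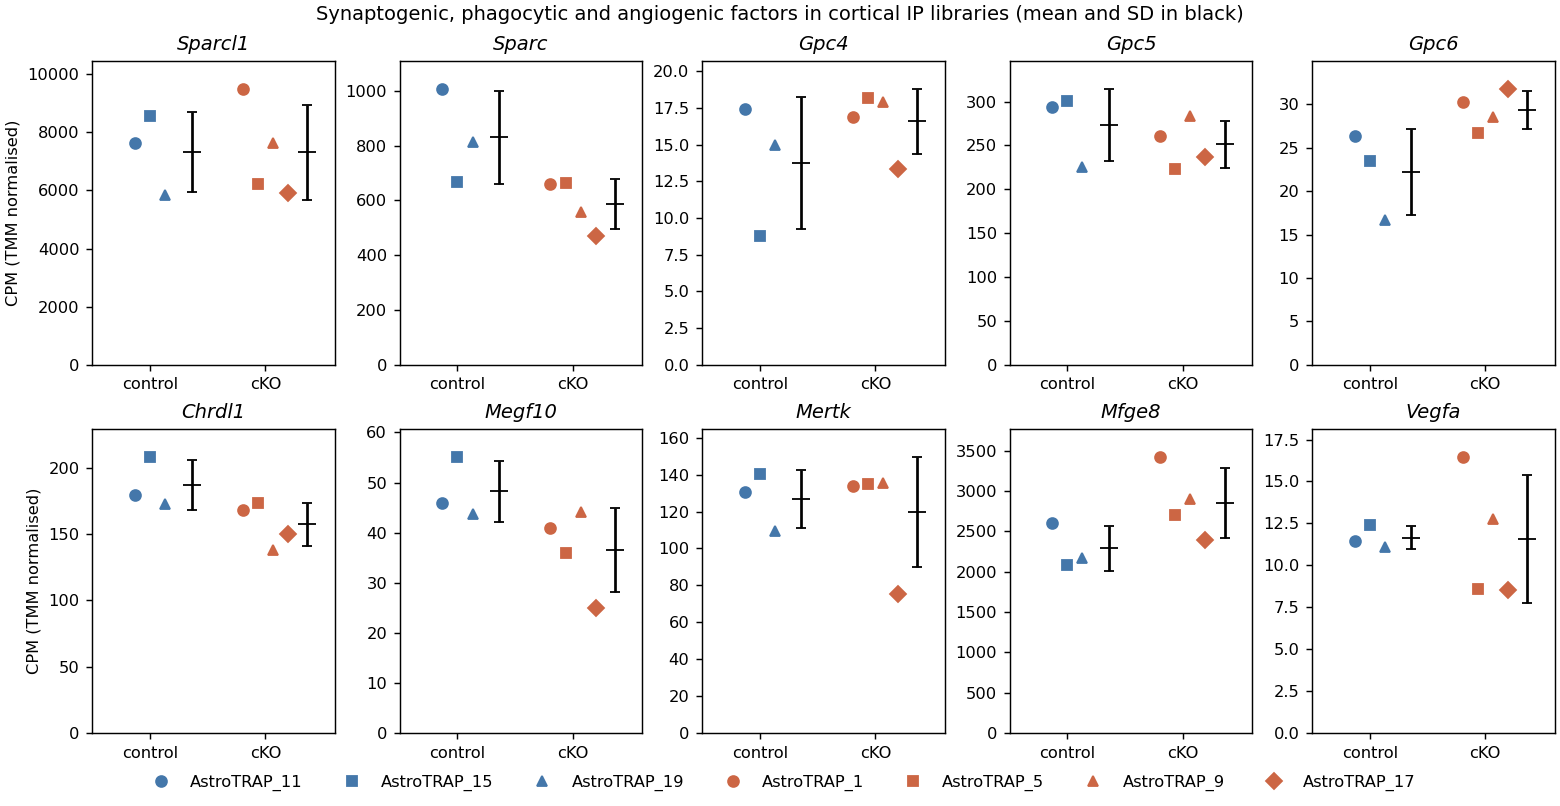
TMM-normalised CPM (vertical axes, starting at 0) of the 10 factors in the 3 control IP libraries (blue) and the 4 cKO IP libraries (orange), 1 symbol per library; black bars give the mean and SD of each group. Sparc is lower and Gpc6 higher in every cKO library than in every control library, and the other 8 overlap.

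Sparcl1, on chromosome 5 from 104079108 to 104114088 of GRCm38, was carried by 79827 to 300011 counts per library. It had 7623, 8548 and 5833 CPM in the control libraries AstroTRAP_11, AstroTRAP_15 and AstroTRAP_19. In the cKO libraries AstroTRAP_1, AstroTRAP_5, AstroTRAP_9 and AstroTRAP_17 it had 9501, 6212, 7623 and 5916 CPM. The groups overlapped over most of their range, with means of 7335 ± 1380 CPM (SD, n = 3) and 7313 ± 1638 CPM (SD, n = 4). The log2 fold change was -0.0043 (standard error 0.20), and its 95% interval, from -0.46 to 0.45, leaves room for a change of up to 1.36-fold upward or down to 0.728 of the control level.

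Sparc, on chromosome 11 from 55394159 to 55420080, encodes a matricellular protein that competes with Sparcl1 at the synapse. It had 1007, 667 and 814 CPM in the control libraries, in the order given above, and 659, 664, 558 and 471 CPM in the cKO libraries. All 4 cKO libraries were below all 3 control libraries, but AstroTRAP_5, at 664 CPM, came within a few CPM of AstroTRAP_15, at 667 CPM. The cKO mean was 70.9% of the control mean, with 829 ± 171 CPM (SD, n = 3) in control and 588 ± 91.8 CPM (SD, n = 4) in cKO libraries. The log2 fold change was -0.50 (standard error 0.18, 95% interval -0.88 to -0.11), and the quasi-likelihood test of edgeR gave an unadjusted p of 0.0167 and an adjusted p of 0.9996. This interval is for a single gene and does not allow for the 13296 tests. Without AstroTRAP_11, the control library with the highest level, the log2 fold change was -0.33 and the unadjusted p 0.109 from edgeR.

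Sparc is also made by endothelial cells, microglia and fibroblasts, and the markers of these cells were compared beside it. The summed level of 7 endothelial markers was 17.0 to 27.3 CPM in control and 17.1 to 40.8 CPM in cKO libraries, and that of 7 microglia markers 67.3 to 93.6 CPM in control and 56.5 to 115 CPM in cKO libraries. Both sums overlapped between the genotypes and had the higher mean in the cKO libraries. Of the 5 endothelial markers tested, 4 had positive log2 fold changes and 1 a negative one, of -1.01. That marker was lower without overlap in the cKO libraries, with an unadjusted p of 0.0434 and an adjusted p of 0.9996 from edgeR. Of the 7 microglia markers tested, 6 had positive log2 fold changes and 1 a negative one. The 4 markers of fibroblasts and leptomeninges summed to 14.0 to 22.3 CPM in control and 7.77 to 19.6 CPM in cKO libraries, which also overlapped but with the lower mean in the cKO libraries, 11.3 against 17.3 CPM, the direction of Sparc. Oligodendrocyte markers were also lower on average, with a summed 752.7 to 848 CPM in control and 464 to 885 CPM in cKO libraries, and 8 of 8 had negative log2 fold changes, 2 of them with an unadjusted p under 0.05 and 0 called by edgeR. Fits with a covariate used the mean log2 CPM of a marker list, not its sum. Covariates from the endothelial, microglia, and fibroblast and leptomeningeal markers were chosen after the data were seen. With each of them in this order, the log2 fold change of Sparc was -0.47, -0.50 and -0.86. With the oligodendrocyte markers as covariate it was -0.40, and the unadjusted p was then 0.101 from edgeR. The part of other cell types in the level of Sparc was not tested beyond these fits.

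The ratio of Sparcl1 to Sparc counts does not depend on how libraries are scaled. It was 7.57, 12.8 and 7.16 in the control libraries and 14.4, 9.36, 13.7 and 12.6 in the cKO libraries. AstroTRAP_15, at 12.8, lay within the range of the cKO libraries, so the groups overlapped, with means of 9.18 ± 3.16 (SD, n = 3) and 12.5 ± 2.23 (SD, n = 4). The pairs of genes for this and the other ratios were chosen after the values had been seen, so no test is given for them. How many other pairs of genes would separate the genotypes was not counted.

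The promoter of Sparc is shown because Sparc had the lowest p of the 10. RefSeq start regions for GRCm38.p6 were matched by symbol for 6 of the 10 genes, namely Sparc, Gpc4, Gpc5, Mertk, Mfge8 and Vegfa. The 250 bases before the start site of Sparc lie at chr11:55420081-55420330 on the minus strand. In this and the other promoters printed here, capitals mark the GC box GGGCGG and the hypoxia response cores ACGTG and GCGTG on either strand, with no overlap between the matches.
Sparc: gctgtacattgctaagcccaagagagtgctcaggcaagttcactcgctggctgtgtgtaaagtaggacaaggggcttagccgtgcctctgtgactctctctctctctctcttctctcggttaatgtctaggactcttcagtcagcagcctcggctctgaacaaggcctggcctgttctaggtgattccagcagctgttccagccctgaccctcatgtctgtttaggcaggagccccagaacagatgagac
The window of Sparc held neither motif, and neither a TATA box (TATAAA) nor a CCAAT box (CCAAT). Over the 32851 start regions in the RefSeq table, 32.7% held a GC box in the same 250 bases, 38.6% a hypoxia response core, 12.4% a TATA box and 33.8% a CCAAT box. A match of letters is no evidence that a factor binds there.

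None of the glypicans passed the test, and their log2 fold changes were positive for Gpc6 and Gpc4 and negative for Gpc5. Gpc6, on chromosome 14 from 116924920 to 117979529, had 26.4, 23.5 and 16.7 CPM in the control libraries and 30.2, 26.7, 28.6 and 31.8 CPM in the cKO libraries. Every cKO library was above every control library, with AstroTRAP_5 and AstroTRAP_11 almost level. The means were 22.2 ± 4.99 CPM (SD, n = 3) and 29.3 ± 2.18 CPM (SD, n = 4). On the log2 scale the difference was 0.40 (standard error 0.19, 95% interval -0.018 to 0.82, unadjusted p = 0.0590 from edgeR's quasi-likelihood test). Without AstroTRAP_19, the control library with the lowest level, the log2 fold change was 0.23. It ran from 0.23 to 0.54 with each library left out in turn.

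Gpc4, on the X chromosome from 52051007 to 52164923, rested on fewer counts, 180 to 687 per library. It had 17.5, 8.76 and 15.0 CPM in the control libraries and 16.9, 18.2, 17.9 and 13.3 CPM in the cKO libraries. The control library AstroTRAP_15 was low, and the other 6 libraries overlapped across genotypes. Its difference on the log2 scale was 0.27 (standard error 0.26, 95% interval -0.31 to 0.85), and without AstroTRAP_15 it was 0.031. It ran from 0.031 to 0.48 with each library left out in turn.

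Gpc5, on chromosome 14 from 115092201 to 116525192, is the neighbour of Gpc6 on that chromosome. Its level was 293, 301 and 226 CPM in the control libraries and 261, 223, 283 and 236 CPM in the cKO libraries. The log2 fold change of -0.12 (standard error 0.14, 95% interval -0.44 to 0.19) was smaller than the spread between replicates. As a ratio of counts within each library, Gpc6 per Gpc5 was 0.0900, 0.0781 and 0.0739 in the control libraries and 0.116, 0.120, 0.101 and 0.134 in the cKO libraries, without overlap. Gpc4 per Gpc5 overlapped, at 0.0291 to 0.0665 in control and 0.0564 to 0.0814 in cKO libraries.

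Chrdl1, on the X chromosome from 143285674 to 143394263, had 180 CPM in AstroTRAP_11, 208 CPM in AstroTRAP_15 and 173 CPM in AstroTRAP_19. The cKO libraries had 168, 173, 138 and 150.0 CPM, and AstroTRAP_5 lay just above AstroTRAP_19, so that the groups overlapped by this 1 pair. The means were 187 ± 18.8 CPM (SD, n = 3) and 157 ± 16.2 CPM (SD, n = 4). This gave a log2 fold change of -0.25 (standard error 0.13, 95% interval -0.53 to 0.035, unadjusted p = 0.0801 from edgeR). Leaving out any 1 library, it stayed between -0.30 and -0.16.

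None of the phagocytic genes passed the test, and the 2 receptors had negative log2 fold changes and the bridging protein a positive one. Megf10, on chromosome 18 from 57133090 to 57297467, encodes an engulfment receptor with EGF-like repeats. It had 45.8, 55.1 and 43.7 CPM in the control libraries and 40.9, 35.9, 44.1 and 25.0 CPM in the cKO libraries. AstroTRAP_9 lay between the control libraries, and the other 3 cKO libraries were below all of them. For Megf10 the log2 fold change was -0.40 (standard error 0.20, 95% interval -0.84 to 0.034, unadjusted p = 0.0674 from edgeR's quasi-likelihood test). Without AstroTRAP_17, the cKO library with the lowest level, it was -0.26. With each library left out in turn, it ran from -0.51 to -0.26.

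Mertk, on chromosome 2 from 128698915 to 128803162, is a receptor tyrosine kinase that binds the bridging proteins Gas6 and Pros1. It had 130, 140 and 110 CPM in the control libraries. Of the cKO libraries, AstroTRAP_1, AstroTRAP_5 and AstroTRAP_9 lay close together, at 133.9, 134.9 and 135.5 CPM, and AstroTRAP_17 had 75.1 CPM. The log2 fold change with all libraries was -0.080 (standard error 0.20, 95% interval -0.52 to 0.36), and without AstroTRAP_17 it was 0.088.

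Mfge8, on chromosome 7 from 79133768 to 79149060, is a secreted protein that links phosphatidylserine to integrins of the phagocyte. It had 2611, 2085 and 2173 CPM in the control libraries and 3427, 2705, 2906 and 2390 CPM in the cKO libraries. The groups overlapped because AstroTRAP_17, at 2390 CPM, was below AstroTRAP_11, at 2611 CPM. The means were 2290 ± 282 CPM (SD, n = 3) and 2857 ± 435 CPM (SD, n = 4), a log2 fold change of 0.32 (standard error 0.16, 95% interval -0.040 to 0.68, unadjusted p = 0.0761 from edgeR's quasi-likelihood test).

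Within each library, Megf10 per Mertk was 0.351, 0.393 and 0.399 in the control libraries and 0.306, 0.266, 0.326 and 0.332 in the cKO libraries, all 4 lower. Mfge8 per Mertk was 20.01, 14.9 and 19.8 in the control libraries and 25.6, 20.06, 21.4 and 31.8 in the cKO libraries, all 4 higher. The nearest values of the 2 groups, 20.01 in AstroTRAP_11 and 20.06 in AstroTRAP_5, were almost equal. The highest, 31.8, was that of AstroTRAP_17, in which Mertk was low at 75.1 CPM.

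The promoter of Mfge8 is shown because Mfge8 was the phagocytic gene without overlap between genotypes on the scale of astrocyte markers given further on, and lies at chr7:79149061-79149310 on the minus strand.
Mfge8: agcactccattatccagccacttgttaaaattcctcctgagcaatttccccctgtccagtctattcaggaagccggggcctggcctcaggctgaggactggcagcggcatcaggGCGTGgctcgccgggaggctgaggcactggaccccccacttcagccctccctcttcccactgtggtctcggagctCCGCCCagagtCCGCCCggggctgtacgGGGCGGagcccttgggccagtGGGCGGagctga
It held 4 GC boxes and 1 hypoxia response core in 250 bases, with no TATA box and no CCAAT box. The base composition differed from that of Sparc, with 65.2% G and C against 54.0%.

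Vegfa, on chromosome 17 from 46016993 to 46032377, had the fewest counts of the group, 115 to 451 per library. It had 11.5, 12.4 and 11.1 CPM in the control libraries and 16.5, 8.59, 12.8 and 8.52 CPM in the cKO libraries. The cKO libraries lay on both sides of the control libraries, with AstroTRAP_1 and AstroTRAP_9 above all 3 and AstroTRAP_5 and AstroTRAP_17 below all 3. The means were 11.7 ± 0.667 CPM (SD, n = 3) and 11.6 ± 3.81 CPM (SD, n = 4). The log2 fold change was -0.0086 (standard error 0.28, 95% interval -0.63 to 0.61), which spans 0.645 to 1.53 times the control level. Among the cKO libraries the spread was 32.9% of the mean, the largest of the 10 genes in that group, where counting error at the lowest count was 9.33%.

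The promoter of Vegfa is shown because the gene is a textbook target of hypoxia-inducible factors. The 250 bases before the outermost RefSeq start are at chr17:46032378-46032627 on the minus strand.
Vegfa: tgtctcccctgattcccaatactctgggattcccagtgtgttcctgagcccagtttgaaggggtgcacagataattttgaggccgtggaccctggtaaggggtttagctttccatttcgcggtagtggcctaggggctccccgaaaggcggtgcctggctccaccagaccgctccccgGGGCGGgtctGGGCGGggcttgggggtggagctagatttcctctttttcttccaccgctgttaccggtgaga
This window held 2 GC boxes, 1 CCAAT box and no hypoxia response core, which says only that these letters are not in these 250 bases. RefSeq lists a further start of Vegfa inside the gene, 7214 bases downstream, whose 250 bases before the start held 2 hypoxia response cores and 1 GC box. Counts were summed per gene, so the starts and the isoforms of Vegfa cannot be told apart.

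**Figure D2:**
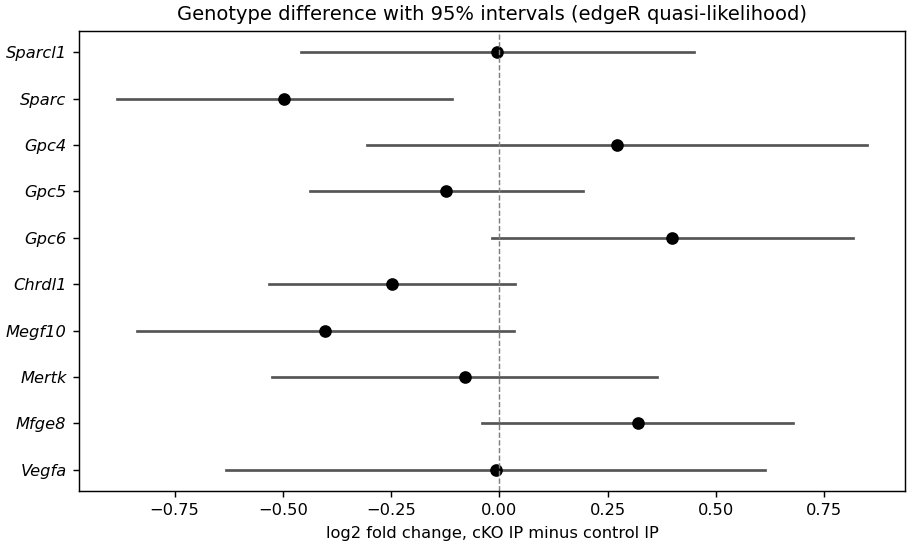
Log2 fold change of each factor (horizontal axis, cKO IP minus control IP) from edgeR's quasi-likelihood test, with its 95% interval as a line. The interval of Sparc, from -0.88 to -0.11, is the 1 of 10 that does not include 0, without allowance for the number of genes tested.

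The spread between libraries of a group was larger than the counting error at the lowest count for 10 genes in the cKO libraries and for 9 in the control libraries, the exception being Vegfa. The coefficient of variation ran from 5.72% for Vegfa to 32.6% for Gpc4 in the control libraries and from 7.45% for Gpc6 to 32.9% for Vegfa in the cKO libraries. Counting error at the lowest count was between 0.354% for Sparcl1 and 9.33% for Vegfa. AstroTRAP_19 was the lowest of the 3 control libraries for 7 of the 10 genes, and AstroTRAP_17 was the lowest of the 4 cKO libraries for 7 of the 10. In the same 2 libraries the geometric mean of the astrocyte markers Gja1, Aldh1l1 and Aqp4 was also the lowest of its group, at 607 CPM in AstroTRAP_19 and 582 CPM in AstroTRAP_17, where the other libraries had 637 to 842 CPM. AstroTRAP_17 was also the shallowest library. The part of astrocyte content or depth in these levels was not tested.

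**Figure D3:**
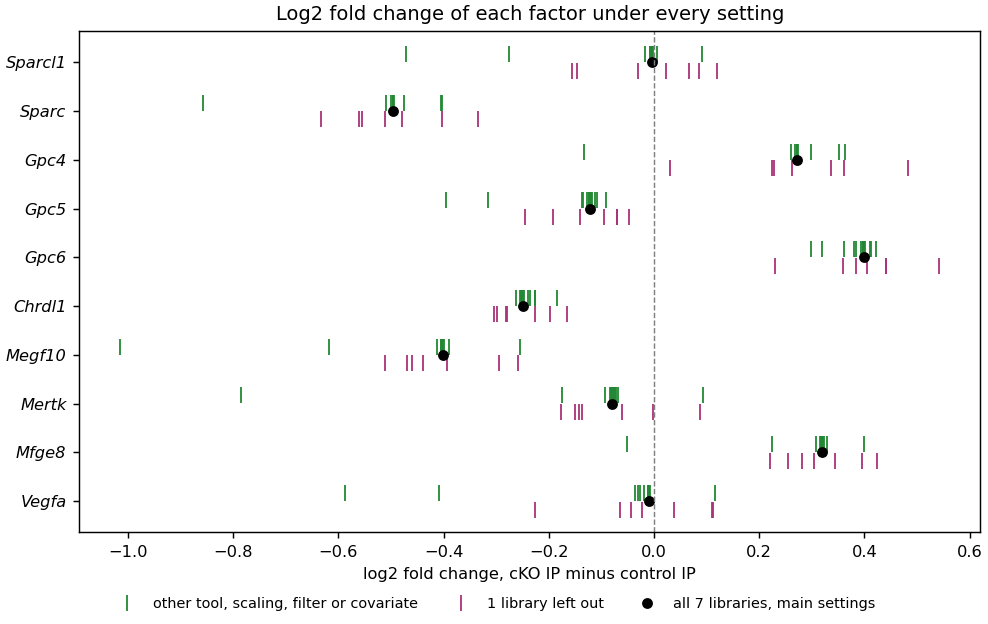
Log2 fold change of each factor (horizontal axis, cKO IP minus control IP) with all 7 libraries (black), under 13 other tools, scalings, filters or covariates (green) and with each library left out (purple). Sparc and Megf10 stay below 0 and Gpc6 above 0 in all 20 fits, as Gpc5 and Chrdl1 stay below 0, while Sparcl1, Mertk, Vegfa, Gpc4 and Mfge8 lie on both sides of 0, the last pair in 1 fit each.

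With the mean log2 CPM of the fibroblast and leptomeningeal markers as a covariate, chosen after the data were seen, several log2 fold changes moved. Megf10 was then at -1.01 (edgeR unadjusted p = 0.00332, adjusted p = 0.139), Mertk at -0.78, Vegfa at -0.59 and Sparcl1 at -0.47, while Mfge8 and Gpc4 turned to -0.051 and -0.13. The summed CPM of these markers, which is not the covariate itself, was high in AstroTRAP_17 alone among the cKO libraries. It was 19.6 CPM there, against 7.77 to 9.41 CPM in the others. AstroTRAP_17 was also the lowest cKO library for 7 of the 10 factors. No factor passed the adjusted threshold in this fit, where 13 of all genes did, against 6 without the covariate. Adjusted p-values were lower in this fit for other factors too. That of Sparcl1 was 0.404 at an unadjusted p of 0.141 (edgeR), against 0.9996 without the covariate.

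Each factor was also expressed per astrocyte marker level, as a ratio to this geometric mean. Gja1 encodes the main astrocyte connexin and Aqp4 the water channel of the endfeet, and both had log2 fold changes near 0, of 0.0064 (standard error 0.13) and 0.0049 (standard error 0.18). Aldh1l1, a folate enzyme, had -0.35 (standard error 0.22). Dividing by the marker level moved the log2 difference of every factor upward by the same amount. For Sparc it went from -0.49 to -0.38 and for Mfge8 from 0.31 to 0.43. This shift came mainly from Aldh1l1, and whether it reflects astrocyte content was not tested. With 3 libraries against 4, an exact two-sided permutation test cannot give a p below 0.0571. On the marker scale 10 such tests were made. The test was also run on the CPM of the 10 factors and on the summed marker levels. In CPM, Sparc and Gpc6 each had an exact permutation p of 0.0571. Per marker level, Gpc6 again had every cKO library above every control library, with 0.0303 ± 0.00458 (SD, n = 3) in control and 0.0442 ± 0.00784 (SD, n = 4) in cKO libraries (exact permutation p = 0.0571). Mfge8 did not overlap on this scale, at 3.52, 2.48 and 3.58 in the control libraries and 4.10, 4.16, 4.56 and 4.11 in the cKO libraries (exact permutation p = 0.0571). Any gene without overlap has this p. The share of all genes without overlap was not counted on this scale, and in CPM it was 5.11%. Sparc did overlap on this scale, because AstroTRAP_15 had 0.792 and the cKO libraries 0.787 to 1.02, while AstroTRAP_11 and AstroTRAP_19 had 1.36 and 1.34 (exact permutation p = 0.229). The mean of Sparc in the cKO libraries was 75.1% of that in control libraries on this scale, against 70.9% in CPM. Sparcl1 per marker level varied little, from 9.61 to 10.3 in control and from 9.56 to 11.96 in cKO libraries.

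**Figure D4:**
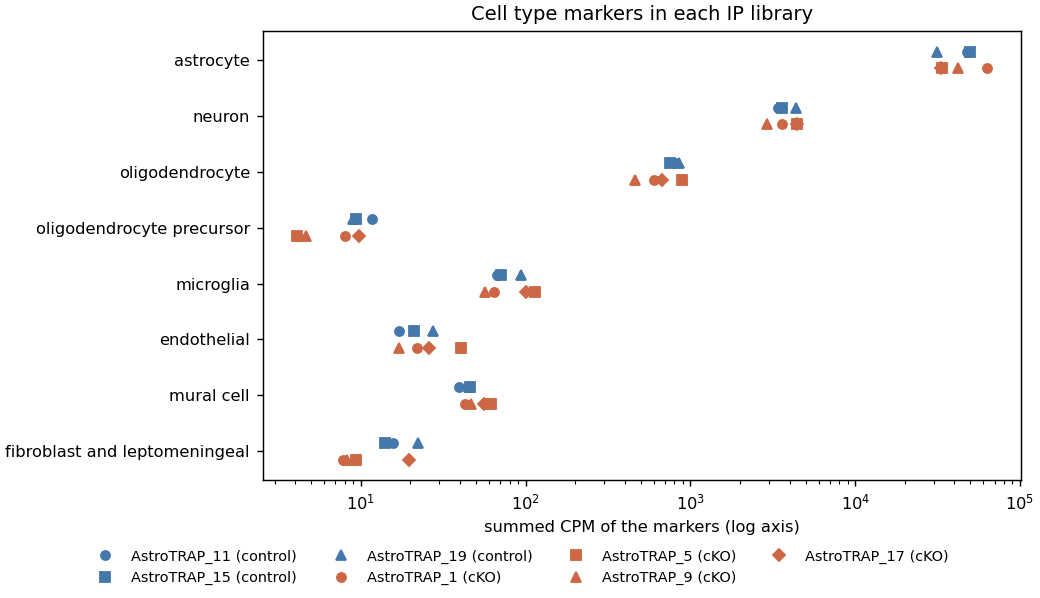
Summed CPM (horizontal log axis) of the marker genes of 8 cell types in each of the 7 IP libraries, control in blue and cKO in orange. The lists differ in their number of genes and the sums are not adjusted for transcript length, so lists are not ranked against each other. No list separates the genotypes.

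The other genes of the same pathways gave no called gene either. Of 107 further genes listed, 95 were tested, and 0 of them were called in either direction by edgeR's quasi-likelihood test. Their log2 fold changes were positive for 51 and negative for 44, with a median of 0.025, and 1 had an unadjusted p under 0.05. That gene was Pros1, which encodes protein S, a bridging ligand of Mertk. It had 15.4, 22.7 and 18.3 CPM in the control libraries and 15.9, 12.9, 13.8 and 8.82 CPM in the cKO libraries, with AstroTRAP_1 above AstroTRAP_11. On the log2 scale the difference was -0.55 (standard error 0.25, edgeR unadjusted p = 0.0483 and Benjamini-Hochberg adjusted p = 0.9996). For the 3 genes of lowest p in each list, the values follow by list.

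Of 22 other synaptogenic factors, 19 were tested and 0 were called, with a median log2 fold change of 0.022. Ncan, the proteoglycan neurocan, differed by a log2 value of -0.29 (standard error 0.14), from 542 ± 55.2 CPM (SD, n = 3) in control to 442 ± 50.2 CPM (SD, n = 4) in cKO libraries. Wnt5a, a secreted Wnt ligand, differed by a log2 value of 0.93 (standard error 0.52) at 2.04 to 2.52 CPM in control and 2.29 to 6.89 CPM in cKO libraries. Thbs4, a thrombospondin, had 115, 61 and 20 counts in the control libraries and 19, 0, 0 and 0 in the cKO libraries, so the values of AstroTRAP_1 and AstroTRAP_19 overlapped in CPM. Thbs1, Tgfb1 and Chrdl2 were too low to be tested.

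All 8 SPARC family genes were tested, and 0 were called, with a median of -0.048. Besides Sparc, the lowest p-values were those of Spock3, a testican proteoglycan, at -0.50 on the log2 scale (standard error 0.27), and Smoc1, with -0.57 (standard error 0.41). Of the 12 glypicans and genes of heparan sulfate synthesis and release, 11 were tested and 0 called, with a median of -0.039. Next to Gpc6 were Gpc3, with at most 35 counts in any library and at most 5 in the cKO libraries, and Hs6st1, a heparan sulfate sulfotransferase, with 0.40 (standard error 0.28).

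All 19 receptors and partners of the synaptogenic factors were tested and 0 were called, with a median of 0.070. Gria4, an AMPA receptor subunit, differed by a log2 value of 0.71 (standard error 0.34), Bmpr2, a receptor of the BMP ligands that Chrdl1 binds, one of 0.29 (standard error 0.16), and Nrxn2, a presynaptic neurexin, one of 0.41 (standard error 0.23). Of 23 genes of phagocytosis, the members among them, 19 were tested and 0 called, with a median of -0.012. Itgb3, Stab2, Timd4 and Cd36 were too low to be tested.

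Of 21 angiogenic ligands and regulators, Vegfa among them, 20 were tested and 0 called, with a median of -0.015. Vegfb, a further VEGF ligand, differed by a log2 value of 0.29 (standard error 0.14), from 70.2 ± 8.84 CPM (SD, n = 3) in control to 86.0 ± 9.31 CPM (SD, n = 4) in cKO libraries. Epas1, which encodes HIF-2 alpha, had a log2 difference of -0.28 (standard error 0.16), and its partner Arnt one of -0.33 (standard error 0.26). Of 11 receptors for these ligands, 8 were tested and 0 called, with a median of 0.10. The Wnt coreceptor Lrp6 differed by a log2 value of -0.53 (standard error 0.38) and the VEGF coreceptor Nrp1 one of 0.25 (standard error 0.18). Lrp5 had at most 30 counts in any library. Kdr, Flt4 and Tie1, which belong to endothelial cells, were too low to be tested.

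**Figure D5:**
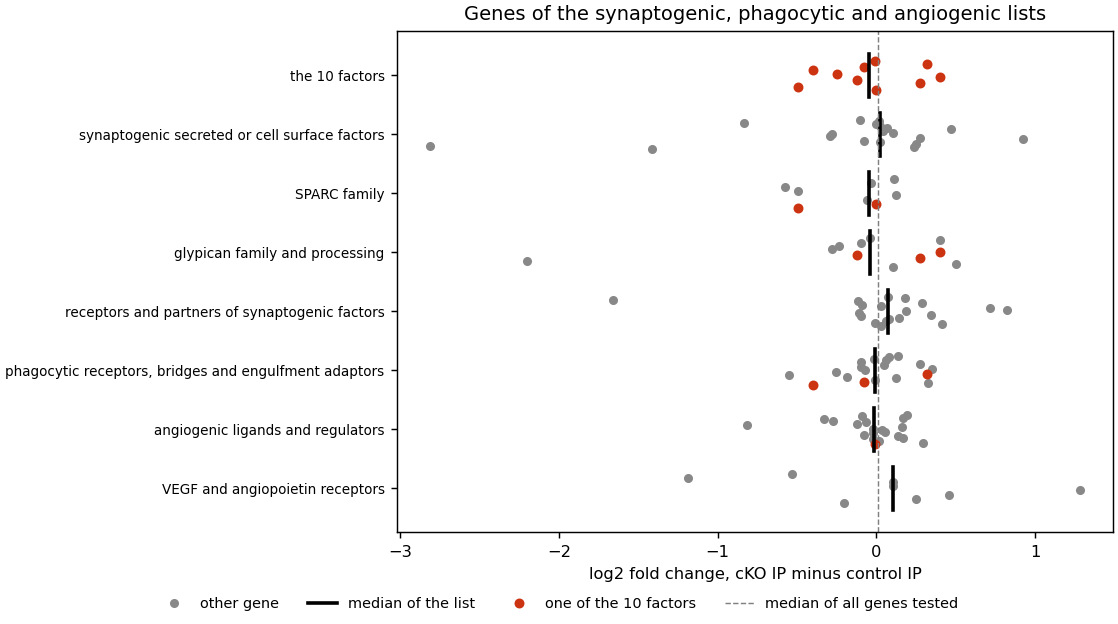
Log2 fold change (horizontal axis, cKO IP minus control IP) of every tested gene of the 10 factors and of 7 related lists; the 10 factors are red, black bars are list medians and the dashed line is the median of all genes, 0.012. List medians lie between -0.048 and 0.10, and no gene shown had an adjusted p under 0.05.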

How the data were processed

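The authors trimmed single-end Smart-seq2 reads with cutadapt 1.15, pseudoaligned them with kallisto 0.44.0 (versions from the submitters' processing notes) to GENCODE vM17 (GRCm38), and deposited estimated counts per gene, not normalized for depth or length. Of 18 columns, 7 were used, whose genotype the study's source data name. The other 11 were not used, so IP to input ratios are not given. The labels list 5 control and 4 cKO IP samples, each with its own animal, and 2 of the labelled control IP samples are thus not analysed here. IP samples with high neuronal RNA had been left out by the study, so the libraries kept were selected on that measure. Libraries of one genotype differed by more than counting noise in each pair (lowest chi-square per degree of freedom 30.9). The columns carry no replicate numbers.

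Counts were rounded, filtered with filterByExpr, scaled by TMM and tested with edgeR 4.0.16 in R 4.3.3 (quasi-likelihood, genotype as the only term, Benjamini-Hochberg over all 13296 genes). Standard errors came from the F statistic. DESeq2 1.42.0 and sva 3.50.0 served as alternatives. CPM are not adjusted for transcript length, so levels of different genes are not ranked. Sparcl1, Gpc4 and Megf10 had whole deposited counts in 7 of 7 libraries, and Sparc, Gpc5, Gpc6, Mfge8 and Vegfa in 0. Reads that fit several transcripts are shared out among them by kallisto. In the library of lowest depth, 3 counts are 0.239 CPM, which covers counting error only. Tests were tried on simulated data. All 10 members are named, with the 3 genes of lowest p in each pathway list and Gja1, Aldh1l1 and Aqp4; Slc2a1 was added as the targeted gene. The members and lists were chosen with earlier results of these data known. Positions and sequences are from RefSeq for GRCm38.p6.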

Additional observations from a re-analysis of the deposited data

Results flagged for a closer look

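In 49 sets of values, the highest and lowest of the 4 cKO libraries were checked for their gap to the other 3; 4 sets had a library that stood apart, where chance gives 2.45. Mertk had 75.1 CPM in AstroTRAP_17, and 134 to 136 CPM in the other 3. Thbs4 had 1.17 CPM in AstroTRAP_1, and 0 in the other 3. Mfge8 per astrocyte marker level was 4.56 in AstroTRAP_9, and 4.10 to 4.16 in the other 3. The summed level of the fibroblast and leptomeningeal markers was 19.6 CPM in AstroTRAP_17, and 7.77 to 9.41 CPM in the other 3.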

How the results depend on the processing

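Under 13 other settings and with each of the 7 libraries left out, the number of the 10 factors with an adjusted p under 0.05 was 0 in every fit, and so was the number of pathway genes under the settings run for them, with 1 CPM in 3 samples, library-size scaling and each library left out (0 to 0). The lowest adjusted p of any factor was 0.139, for Megf10 with the fibroblast and leptomeningeal markers as covariate. In that edgeR fit 13 of all genes were called, against 6 in the main fit. The number of factors without overlap between the genotypes was 2, and ranged from 2 to 5 with 1 library left out. It was 5 without AstroTRAP_19 and 4 without AstroTRAP_11 or AstroTRAP_9, where 10.6%, 9.68% and 8.56% of all genes tested did not overlap in either direction, against 5.11% with all 7 libraries. Sparc, Gpc5, Gpc6, Chrdl1 and Megf10 kept their direction in all 20 fits. The number of factors with an unadjusted p under 0.05 depended on the fit. It was 1 in the main fit and 1 to 2 with 1 library left out. It was 2 with DESeq2, library-size scaling or 1 surrogate variable, 3 with the fibroblast and leptomeningeal markers, and 4 with the neuron or the microglia markers as covariate. The share of all genes under 0.05 was not counted in these other fits.

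The sign of genes near 0 depended on the fit, and the cause was not tested. Sparcl1 had 0.091 with 1 surrogate variable, 0.0054 with the neuron markers as covariate, and -0.16 to 0.12 with 1 library left out (0.023, 0.12, 0.066 and 0.085 without AstroTRAP_11, AstroTRAP_15, AstroTRAP_5 and AstroTRAP_17). Vegfa had 0.12 with 1 surrogate variable and 0.038, 0.11 and 0.11 without AstroTRAP_15, AstroTRAP_5 and AstroTRAP_17, with a range of -0.23 to 0.11, and Mertk had 0.093 and, with 1 library left out, -0.18 to 0.088. Per astrocyte marker level, Sparcl1 and Vegfa had log2 differences of 0.099 and 0.048. With the fibroblast and leptomeningeal markers as covariate, Gpc4 had -0.13, Mfge8 -0.051, Ncan 0.039 and Bmpr2 -0.062. The exact test called 18 and DESeq2 21 of all genes, where the quasi-likelihood test called 6. No paired analysis was possible because the columns carry no replicate numbers.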
